A study of Prunus persica and Prunus armeniaca with 129 samples.

Results

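Apricot flower buds of early and late blooming cultivars were compared at 100 chill hours, when the study placed all 4 cultivars in endodormancy. The comparison was set by the labels of the samples: every apricot library labelled 100 chill hours was taken, which gave 10 of the 60 apricot libraries and of the 129 libraries of the series. The early blooming side held A2137 (Bakour, 2 libraries) and A1956 (Palsteyn, 2 libraries), and the late blooming side held A660 (Bergeron, 3 libraries) and A1267 (Badami, 3 libraries). All were Prunus armeniaca trees grown at 1 site in France and sampled untreated in 1 winter, each library came from the buds of 1 tree, and the trees of a cultivar were grafted copies of 1 genotype. With 2 cultivars on each side, bloom time and any other difference between these genotypes cannot be told apart. The p-values of the early against late test rest on a spread that mixes trees with the 2 cultivars of a side, and trees of a cultivar count as replicates. Those of the cultivar pairs measure the spread between trees of a genotype.

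Endodormancy is the phase in which a bud does not grow even in warm weather because of signals held inside the bud itself. Winter chill releases it, and cultivars that need less chill bloom earlier. In Prunus a tandem cluster of MADS-box genes, the DORMANCY-ASSOCIATED MADS-BOX (DAM) genes, is the best known set of regulators of this phase, and its expression generally declines as chill accumulates. No sequences are shown, since the files pair gene identifiers with counts alone. Gene identifiers are those of the peach genome v2.0, to which the apricot reads were aligned, and the gene names given with them are those of the best matching Arabidopsis gene in the study's annotation, so each role below is a role known in Arabidopsis unless another species is named.

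The 10 libraries held between 8497944 and 21008768 counted reads, and 3 counts, used here as the floor of detection, corresponded to 0.143 to 0.353 CPM, the counts of a gene scaled to a common library size. Between 21367 and 22297 genes had at least 1 count in a library. One library stood apart: A1267 replicate 1 was the shallowest, gave 7.02% of its counts to its 10 most abundant genes against 3.18% to 3.92% in the other 9, and differed from the other A1267 libraries by a chi-square of 61 and 65.7 per gene, where other pairs of libraries of a cultivar differed by 8.9 to 20.1. The defining markers of pollen and anther were at or near 0, with 6 genes summing to 0.198 to 1.39 CPM in a library, and the ovule gene SEEDSTICK (STK, Prupe.1G549600) averaged 0.199 to 0.435 CPM in the 4 cultivars. The 4 genes annotated to chlorophyll binding or the photosystems summed to 28.8 and 34.3 CPM in A2137 and 44.4 and 47.8 CPM in A1956. They summed to 50 to 58.7 CPM in A660 and 70.8 to 73.5 CPM in A1267. This sum was lowest in A2137, but its members did not move alike, with early minus late log2 fold changes from -1.29 to 0.25. The part of green tissue in the results below was not tested. In whole buds, fewer cells of a type and less RNA per cell cannot be told apart.

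A gene was called where its difference was larger than 2-fold by edgeR's quasi-likelihood test against that fold, at an adjusted p under 0.05, with the libraries of both cultivars of a phenotype as 1 group. By this rule 176 of 21778 genes tested differed between early and late buds (0.808%), of which 152 were higher in early buds (0.698%) and 24 lower (0.11%). The median log2 fold change of all genes was 0.00. Among the called genes, the 4 early libraries and the 6 late libraries did not overlap in CPM for 84 of the 152 higher genes and for 21 of the 24 lower genes; over all genes tested, early libraries lay wholly above late libraries for 4.04% and wholly below for 4.11%. Against no change, without a fold in the test, 1325 genes were higher (6.08%) and 579 lower (2.66%). The count moved with A2137 and with A1956: it was 59 without A2137 replicate 2, 59 without A2137 replicate 3 and 293 without A1956 replicate 2, and it was 13 without both A2137 libraries and 881 without both A1956 libraries. It also moved with the fit: the 10 libraries alone gave 12 genes (9 higher, 3 lower), groups by cultivar gave 666 (355 higher, 311 lower), so that the excess of higher genes shrank, and DESeq2 gave 114 (92 higher, 22 lower). Of the 44 called genes picked by the naming rule given under processing, 27 were not called from the 10 libraries alone and 9 were below the count filter there. Calls were lost for 17 without A660 and 20 without A1267. Without A2137, 33 were not called and 1 reversed.

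The 2 early cultivars did not stand at the same distance from the late ones. In a fit with each cultivar at each time point as its own group, which measures spread between trees of 1 cultivar, A2137 differed from A660 at 2373 of 22472 genes (10.6%), with 1128 higher (5.02%) and 1245 lower (5.54%) in A2137. It differed from A1267 at 2187 genes (9.73%), with 1164 higher (5.18%) and 1023 lower (4.55%). A1956 differed from A660 at 218 genes (0.97%), with 128 higher (0.57%) and 90 lower (0.4%), and from A1267 at 759 (3.38%), with 472 higher (2.1%) and 287 lower (1.28%). The pairs share libraries, so their counts are not independent. A2137 differed from the other early cultivar at 1786 genes (7.95%), with 845 higher (3.76%) and 941 lower (4.19%). The late cultivars differed at 958 genes (4.26%), with 572 higher (2.55%) and 386 lower (1.72%) in A660, so more genes separated cultivars of the same phenotype than separated A1956 from A660. These counts fell when either A1956 library was left out, which leaves 1 for that cultivar. Without A1956 replicate 1 and without replicate 2, A1956 against A660 gave 143 and 150 genes, and A1956 against A1267 gave 524 and 404. A2137 against A1956 gave 1517 and 1031.

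**Figure D1:**
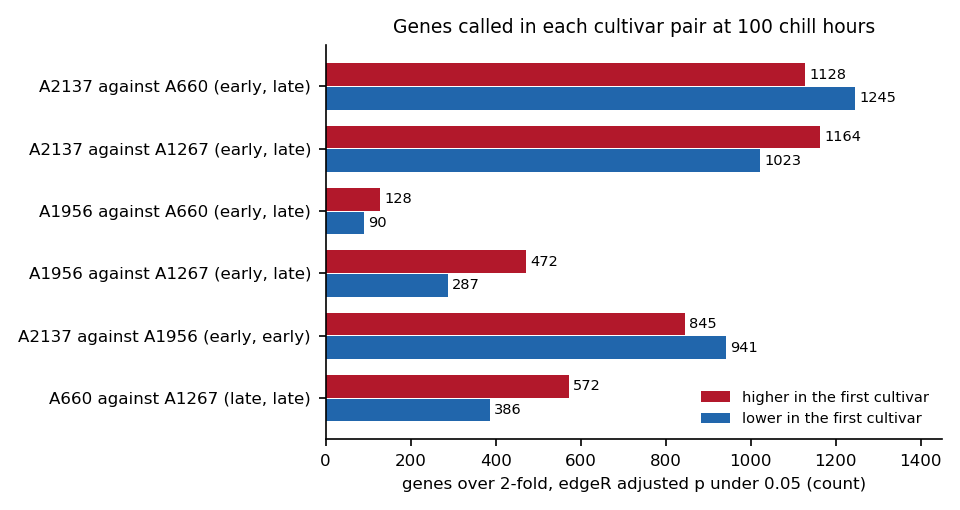
Genes over 2-fold at 100 chill hours (count, horizontal axis, edgeR adjusted p under 0.05) in each of the 6 pairs of cultivars, with red bars for genes higher and blue bars for genes lower in the cultivar named first. A2137 gave the longest bars, with 1128 and 1245 genes against A660, and A1956 against A660 the shortest, with 128 and 90.

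Of the 152 genes higher in early buds, 110 were called in both comparisons of A2137 with a late cultivar and in neither comparison of A1956, 18 in all 4 early against late pairs, 3 in both A1956 pairs and in neither A2137 pair, and 21 in other combinations. The mean was higher in A2137 than in A1956 for 139 of the 152 genes, and for 110 of them A2137 was also called above A1956. A1956 nevertheless lay on the same side as A2137 for most: its mean was above both late means for 127 of the 152 higher genes and below both for 23 of the 24 lower genes. With each group set to at least 3 counts, the median log2 ratio of the 152 genes to the late libraries was 4.15 in A2137 and 1.24 in A1956, and that of the 24 lower genes was -3.93 and -2.69. These counts and medians describe genes that the same libraries had chosen. The test held A2137 and A1956 as 1 group, so a gene low in A2137 alone could hardly pass 2-fold lower. The side of A1956 among the lower genes was thus largely set by the calling.

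**Figure D2:**
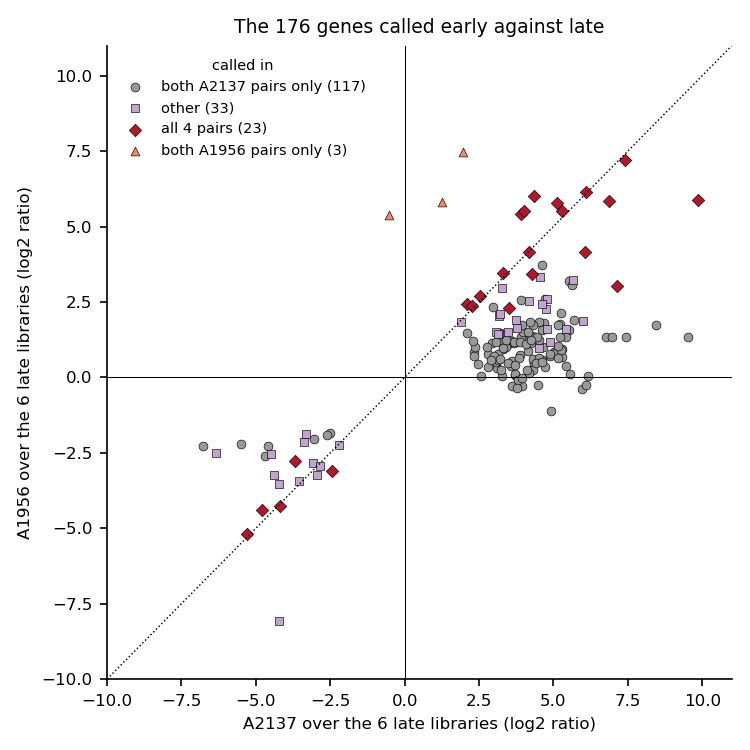
Each point is 1 of the 176 called genes, placed by the log2 ratio of pooled counts of A2137 (horizontal axis) and of A1956 (vertical axis) to the 6 late libraries, with each group set to at least 3 counts. Of the 117 genes called in both A2137 pairs only, 110 lie to the right, with a median of 4.13 on the horizontal and 0.92 on the vertical axis, and most of the 23 genes called in all 4 pairs lie closer to the dotted line of equal ratios.

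Regulators of stress and hormone responses were among the genes higher in early buds. ERF13 (Prupe.2G272300), an ethylene response factor that binds GCC-box promoters, stood at 239 and 282 CPM in A2137, 77.6 and 69 CPM in A1956, 26.5, 28.7 and 22.5 CPM in A660 and 13.8, 10.5 and 15.3 CPM in A1267. Every early library was above every late one, and the early minus late log2 fold change was 3.09 (SE 0.543, adjusted p = 0.00688). ABR1, a repressor of abscisic acid responses, was the best match of 2 called genes. Prupe.8G037900 stood at 370 and 439 CPM in A2137, 92.1 and 84.6 CPM in A1956, 25.5, 37.3 and 18 CPM in A660 and 29.2, 21.4 and 30.5 CPM in A1267, with a log2 fold change of 3.19 (SE 0.548, adjusted p = 0.00506). Prupe.6G165700 showed the same order, with 152 and 211 CPM in A2137, 35.8 and 43.4 CPM in A1956 and 3.07 to 16.2 CPM in the late libraries, and a log2 fold change of 4.0 (SE 0.632, adjusted p = 7.47e-04). Another member of the AP2/ERF family, Prupe.5G141200, was called in all 4 pairs at lower levels, with cultivar means of 4.14 CPM in A2137, 1.93 in A1956, 0.335 in A660 and 0.363 in A1267 (log2 fold change 3.06, SE 0.518, adjusted p = 0.00536). Of the 15 listed AP2/ERF genes tested, these 4 were called higher and none lower, and the list's median log2 fold change was -0.36. All 4 were in the study's own table of genes changed at 100 chill hours, from which the family lists were partly drawn. Family lists here and below hold only genes found by keyword among the 2757 annotated identifiers, so other members of a family can be missing. ERF13 and Prupe.5G141200 were no longer called without A2137 replicate 2, nor ERF13 and Prupe.8G037900 without A2137 replicate 3.

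WRKY23 (Prupe.3G008600), a transcription factor of auxin responses in the root, was the 1 called gene of 4 listed WRKY genes tested. It stood at 199 and 239 CPM in A2137, 43 and 40.8 CPM in A1956, 19.6, 19 and 15 CPM in A660 and 26.8, 19.5 and 25.5 CPM in A1267. The early libraries were all above the late ones, and the log2 fold change was 2.64 (SE 0.333, adjusted p = 4.39e-04). HSFA3 (Prupe.7G117200), a heat stress transcription factor, was the 1 called gene of 22 listed heat shock genes tested. It stood at 13.5 and 18.4 CPM in A2137, 4.05 and 5.2 CPM in A1956 and 1.44 to 2.92 CPM in the 6 late libraries, without overlap (log2 fold change 2.14, SE 0.301, adjusted p = 0.00884). Without either A2137 library HSFA3 was not called. JMT (Prupe.1G375800), which makes methyl jasmonate from jasmonic acid, stood at 45.3 and 53.5 CPM in A2137, 4.05 and 2.08 CPM in A1956, 0.257, 0.774 and 0.203 CPM in A660 and 0.599, 0.212 and 0.32 CPM in A1267. It was called in all 4 pairs and also between the early cultivars, with an early minus late log2 fold change of 6.10 (SE 0.658, adjusted p = 2.15e-07).

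Of 6 genes annotated as chitinases, which cleave the chitin of fungal walls, 4 were called higher and 1 lower. The list took 5 of its 6 members from the study's own table of genes changed at 100 chill hours. The called genes were those 5, so these counts are not independent support. Prupe.1G204700, which matches EP3, an endochitinase first described in carrot, stood at 37.4 and 45.6 CPM in A2137, 2.62 and 2.23 CPM in A1956, 0.898, 1.12 and 0.814 CPM in A660 and 0.24, 0.477 and 0.32 CPM in A1267. The groups did not overlap, and the log2 fold change was 5.06 (SE 0.602, adjusted p = 2.59e-06). A further EP3 match close by in the numbering, Prupe.1G204800, averaged 59.7 CPM in A2137 and 3.07 CPM in A1956 against 1.91 and 1.17 CPM in A660 and A1267, with early and late libraries overlapping (log2 fold change 4.34, SE 0.592, adjusted p = 4.8e-05). Prupe.1G391300, a glycosyl hydrolase with a chitinase insertion domain, averaged 31.1 CPM in A2137, 2.4 in A1956, 0.444 in A660 and 0.831 in A1267 (log2 fold change 4.74, SE 0.781, adjusted p = 0.00103). The opposite pattern held for Prupe.1G080500, also an EP3 match, at 0 and 0.0578 CPM in A2137, 1.42 and 2.18 CPM in A1956, 14.3, 15 and 8.61 CPM in A660 and 15.6, 3.5 and 3.65 CPM in A1267 (log2 fold change -3.45, SE 0.745, adjusted p = 0.0239). Its call was lost without A2137 replicate 2, A2137 replicate 3 or A1267 replicate 1. How the counting treated reads shared between near-identical copies is not stated in the sources used here, so the split between the EP3 copies, the MLP copies and the terpene genes below is uncertain.

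A thaumatin-like pathogenesis related gene, Prupe.7G169400, stood at 109 and 106 CPM in A2137, 9.66 and 4.06 CPM in A1956, 3.14, 1.81 and 2.98 CPM in A660 and 2.4, 6.52 and 7.69 CPM in A1267. A1956 overlapped the late libraries, and the early minus late log2 fold change was 3.79 (SE 0.501, adjusted p = 4.8e-05). It was the 1 called gene of 8 in its list. A peroxidase, Prupe.2G260800, had the same shape, with 377 and 420 CPM in A2137, 35.3 and 27.8 CPM in A1956, 24.1, 38.9 and 31.9 CPM in A660 and 8.15, 9.28 and 10.6 CPM in A1267 (log2 fold change 3.39, SE 0.666, adjusted p = 0.0132). It was the 1 called gene of 14 tested in the family list of peroxidases, which does not hold every peroxidase tested, and was not called without either A2137 library.

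The major latex protein family (MLP), small ligand-binding proteins related to the birch pollen allergen Bet v 1, moved in both directions. Among the 5 listed genes that match MLP423, 3 were called higher, and these 3 came from the study's own table of genes changed at 100 chill hours. Prupe.1G127600 stood at 68.2 and 63.2 CPM in A2137, 4.79 and 3.86 CPM in A1956 and 0.642 to 1.99 CPM in the late libraries (log2 fold change 4.67, SE 0.738, adjusted p = 5.22e-04). Prupe.1G126900 averaged 22.4 CPM in A2137, 1.41 in A1956, 0.786 in A660 and 1.06 in A1267 (log2 fold change 3.68, SE 0.64, adjusted p = 0.00321). Prupe.1G128300 had 137 counts in the early and 3 in the late libraries, a ratio of normalised counts of 55.7 with a 95% exact counting interval of 18.7 to 273, and all 137 were from A2137. Prupe.1G128300 was not called without either A2137 library, its log2 fold change was -2.37 without both, and Prupe.1G126900 was not called without A2137 replicate 2. The most abundant copy was lower in A2137: Prupe.1G128700 averaged 371 CPM (SD 70.2) in A2137, 1321 (SD 113) in A1956, 1909 (SD 464) in A660 and 1934 (SD 76.9) in A1267, and passed the test against no change (log2 fold change -1.18, SE 0.338, adjusted p = 0.0188) without being called over 2-fold, as did the scarce Prupe.1G128800 (log2 fold change -1.90, SE 0.583, adjusted p = 0.03). The 5 listed members together summed to 417 and 509 CPM in A2137, 1250 and 1408 CPM in A1956 and 1408 to 2320 CPM in the late libraries.

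Of 8 terpene synthase and terpenoid cyclase genes tested, 7 were called higher and none lower, on a list that took 7 of its 9 members from the study's own table of genes changed at 100 chill hours. Prupe.4G125300, which matches TPS03, a synthase of the volatile ocimene, stood at 16.4 and 16 CPM in A2137, 1.27 and 0.742 CPM in A1956, 0.706, 0.602 and 0.678 CPM in A660 and 0.12, 0.159 and 0.448 CPM in A1267 (log2 fold change 4.21, SE 0.859, adjusted p = 0.0132). Prupe.4G125200, a further TPS03 match, averaged 7.25 CPM in A2137, 0.373 in A1956, 0.212 in A660 and 0.127 in A1267 (log2 fold change 4.34, SE 0.894, adjusted p = 0.0141), and neither was called without A2137 replicate 2 or without A2137 replicate 3. Prupe.3G026400, which matches the triterpene cyclase CAMS1, stood at 10.1 and 15.2 CPM in A2137, 2.17 and 1.83 CPM in A1956 and 0.136 to 0.86 CPM in the late libraries (log2 fold change 3.70, SE 0.596, adjusted p = 0.00134).

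Prupe.4G190700, a match of TPS21, which makes the sesquiterpene caryophyllene, had the reverse order of the early cultivars. It stood at 8.02 and 5.15 CPM in A1956 and at 0.107 and 0.173 CPM in A2137, and 4 of the 6 late libraries had no count. Early libraries held 216 counts and late libraries 2, a ratio of 132 (95% exact counting interval 36 to 1094, adjusted p = 0.00536), and A1956 was called above both late cultivars and above A2137. A2137 was called above neither late cultivar. This order did not hold for the more abundant TPS21 match Prupe.4G194200, given here because it shares the name. It averaged 59.7 CPM in A2137, 7.41 in A1956, 3.29 in A660 and 2.07 in A1267 (log2 fold change 3.66, SE 0.663, adjusted p = 0.00506). A2137 was called above both late cultivars for it, and A1956 above neither.

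Of 25 listed UDP-glycosyltransferases tested, which attach sugars to hormones and defence compounds, 3 were called higher. UGT73B3 (Prupe.8G130400) stood at 3.96 and 4.22 CPM in A2137 and 1.8 and 2.23 CPM in A1956, and of the 6 late libraries 5 had no count and A1267 replicate 2 had 0.053 CPM. The 216 early counts against 1 late count gave a ratio of 263 (95% exact counting interval 46.8 to 10448, adjusted p = 1.18e-05). UGT73D1 (Prupe.7G124000) followed A2137 instead, with 18.2 and 18.4 CPM there, 1.35 and 0.841 CPM in A1956 and 0.12 to 1.38 CPM in the late libraries (log2 fold change 3.95, SE 0.651, adjusted p = 0.00134). UGT85A2 (Prupe.1G519700), at 3 and 1.27 CPM in A2137 and at or below 0.256 CPM in the other 8 libraries, was just past the threshold (adjusted p = 0.0485) and lost its call in 15 of 20 alternative settings.

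EXPA4 (Prupe.2G237000), an expansin, which loosens cell walls, stood at 188 and 236 CPM in A2137, 8.31 and 5.25 CPM in A1956, 2.18, 3.95 and 3.93 CPM in A660 and 4.31, 5.46 and 9.03 CPM in A1267. A1956 overlapped the late libraries (log2 fold change 4.50, SE 0.581, adjusted p = 1.47e-05). A pectin methylesterase inhibitor family gene, Prupe.2G279700, stood at 1087 and 897 CPM in A2137, 225 and 231 CPM in A1956, 53.3, 47.1 and 73.4 CPM in A660 and 79.1, 82.1 and 101 CPM in A1267, with no overlap (log2 fold change 3.07, SE 0.465, adjusted p = 0.0014). These were the 2 called genes of 8 in the expansin and pectin list, whose median log2 fold change was -0.01. STP13 (Prupe.1G156300), a hexose uptake transporter, stood at 418 and 513 CPM in A2137, 92.7 and 90.4 CPM in A1956, 56.5, 62.9 and 50.6 CPM in A660 and 35, 39.8 and 40.1 CPM in A1267 (log2 fold change 2.55, SE 0.413, adjusted p = 0.00927), and was not called without either A2137 library. It was the 1 called gene of 8 listed sugar transporters tested.

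**Figure D3:**
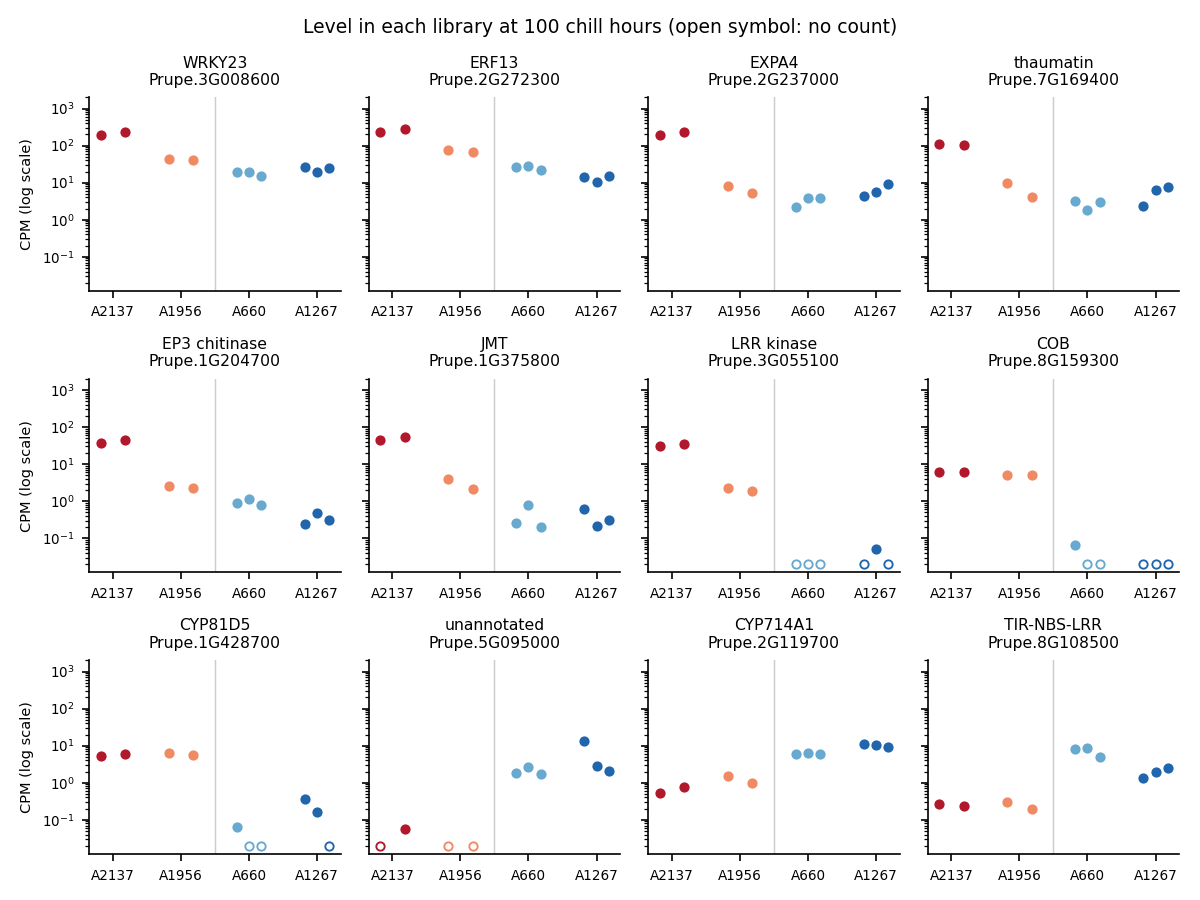
Level of 12 genes (CPM, log scale, vertical axis) in each library at 100 chill hours, with early cultivars to the left of the grey line and late cultivars to the right; an open symbol at the foot of a panel is a library with no count. WRKY23, ERF13, EXPA4, the thaumatin-like gene, the EP3 chitinase and JMT step down from A2137 to A1956, whereas COB and CYP81D5 are level across the 4 early libraries.

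Genes that differed in all 4 early against late pairs were few. By the separate cultivar fit 19 of 22472 genes were higher in both early cultivars than in both late ones (0.0845%) and 6 were lower (0.0267%); 18 and 5 of these are among the 176. Several had few or no counts in late buds. Apricot reads were aligned to the peach genome, and whether the gene copy of a cultivar aligned less well was not tested. COB (Prupe.8G159300), a COBRA-like anchored protein whose Arabidopsis match orients cell expansion, stood at 5.99 and 6.01 CPM in A2137, 5.24 and 5.1 CPM in A1956, 0.0642 CPM in A660 replicate 1 and 0 in the other 5 late libraries. Its 389 early counts against 1 late count gave a ratio of 474 (95% exact counting interval 84.6 to 18777, adjusted p = 4.13e-07). A2137 minus A1956 was 0.22 on the log2 scale and was not called. CYP81D5 (Prupe.1G428700), a cytochrome P450, stood at 5.4 and 5.84 CPM in A2137, 6.37 and 5.59 CPM in A1956, 0.0642, 0 and 0 CPM in A660 and 0.359, 0.159 and 0 CPM in A1267 (log2 fold change 5.96, SE 0.625, adjusted p = 2.15e-07). RPT6A (Prupe.2G111300), which matches an ATPase subunit of the 26S proteasome, stood at 4.87 and 3.41 CPM in A2137, 4.79 and 5 CPM in A1956 and 0.0641 to 0.359 CPM in the late libraries (log2 fold change 5.25, SE 0.571, adjusted p = 4.13e-07). Leaving out A1956 replicate 1 lowered the number of genes called in all 4 pairs from 25 to 14, and leaving out A1956 replicate 2 lowered it to 17.

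Receptor genes were among those called in all 4 pairs. Of the genes annotated as receptor kinases, receptor-like proteins or NBS-LRR disease resistance proteins, 80 were tested. Of these 10 were called higher and 4 lower, and the median log2 fold change of the 80 was -0.07. The list took 15 of its 90 members from the study's own table of genes changed at 100 chill hours. Only 1 called gene lay outside that table, so these counts are not independent support. The leucine-rich repeat kinase gene Prupe.3G055100 stood at 31.5 and 34.4 CPM in A2137 and 2.32 and 1.93 CPM in A1956, and 1 read in A1267 replicate 2 was the sole count of the late libraries. With 1253 early counts the ratio was 1527 (95% exact counting interval 274 to 60378, adjusted p = 2.4e-05), and A2137 was called above A1956. Another kinase of this type, Prupe.3G056100, had 69 early counts and none in the late libraries, so it was at least 28-fold higher against a floor of 3 counts over the late group (adjusted p = 0.00523). Prupe.1G083100, a lectin kinase gene, stood between 0.599 and 0.643 CPM in the 4 early libraries and at 0 in the late ones, at least 17.9-fold higher (adjusted p = 1.63e-05). RLP7 (Prupe.2G128700), a receptor-like protein, stood at 2.57 and 3.18 CPM in A2137, 3.82 and 5 CPM in A1956 and 0 to 0.212 CPM in the late libraries (log2 fold change 5.37, SE 0.822, adjusted p = 2.98e-04). Over the 34 late apricot libraries of all stages, 8 of the 152 higher genes never exceeded 3 counts, among them Prupe.1G083100, Prupe.3G056100 and the TPS21 match Prupe.4G190700.

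Other genes with large differences were a thioesterase family gene, Prupe.2G260400, with 69 early counts and 1 late count (ratio 84.1, 95% exact counting interval 14.6 to 3370, adjusted p = 0.00171), and genes with no annotation. Prupe.1G202900 had 106 early counts and 1 late count (ratio 129, interval 22.7 to 5151, adjusted p = 1.18e-05) and was called in all 4 pairs. Prupe.6G274300 had 50 early counts and none in late buds, at least 20.3-fold higher (adjusted p = 0.0228), with 1.44 and 1.16 CPM in A2137 and 0.0749 and 0.099 CPM in A1956. The latter was not called without either A2137 library, without A660 replicate 1 or without A1267 replicate 2.

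Fewer genes were called lower than higher in the phenotype groups, 24 against 152, where groups by cultivar gave 311 against 355. The 24 included resistance genes and a gibberellin enzyme. CYP714A1 (Prupe.2G119700), whose Arabidopsis match deactivates gibberellins, stood at 0.535 and 0.752 CPM in A2137, 1.5 and 0.99 CPM in A1956, 5.9, 6.19 and 5.97 CPM in A660 and 11, 10.4 and 9.48 CPM in A1267. It was called lower in all 4 pairs, with a log2 fold change of -3.11 (SE 0.544, adjusted p = 0.00523), though not overall without A2137 replicate 2. A TIR-NBS-LRR resistance gene, Prupe.8G108500, stood at 0.268 and 0.231 CPM in A2137, 0.3 and 0.198 CPM in A1956, 8.34, 8.6 and 4.82 CPM in A660 and 1.32, 1.91 and 2.43 CPM in A1267 (log2 fold change -4.17, SE 0.78, adjusted p = 0.00523), and was also lower in all 4 pairs. Its level differed between the late cultivars too, A660 lying above A1267 in every library. Another TIR-NBS-LRR gene, Prupe.8G120400, was nearly absent in A1956 (0.0749 and 0 CPM), low in A2137 (1.02 and 1.56 CPM) and highest in A660 (45.5, 55 and 29.8 CPM against 9.35, 5.09 and 3.78 CPM in A1267), with a log2 fold change of -5.19 (SE 1.09, adjusted p = 0.0118) that was not called without A2137 replicate 2.

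A protein kinase gene, Prupe.6G352900, averaged 0.113 CPM in A2137, 0.149 in A1956, 4.9 in A660 and 1.51 in A1267 (log2 fold change -4.54, SE 0.741, adjusted p = 9.40e-04) and was lower in all 4 pairs. Prupe.5G095000, with no annotation, was represented by 1 read in the early libraries and by 279 in the late ones, a late to early ratio of 229 (95% exact counting interval 40.7 to 9072, adjusted p = 1.18e-05), with A1267 replicate 1 at 13.3 CPM and the other late libraries at 1.7 to 2.76 CPM. A gibberellin-regulated family gene, Prupe.5G193400, stood at 0.375 and 0.231 CPM in A2137, 4.42 and 4.31 CPM in A1956, 12.1, 8.77 and 19.5 CPM in A660 and 36.5, 34 and 36.2 CPM in A1267, each cultivar apart from the next (log2 fold change -3.40, SE 0.683, adjusted p = 0.0144). PR5K (Prupe.3G145200), a receptor kinase with a thaumatin-like outer domain, averaged 0.0289 CPM in A2137, 0.373 in A1956, 2.7 in A660 and 1.96 in A1267 (log2 fold change -3.52, SE 0.78, adjusted p = 0.0309). Neither of these last genes was called without A2137 replicate 2 or without A2137 replicate 3, and PR5K was also not called without A1267 replicate 1, A660 replicate 1 or A660 replicate 2. Of the genes with no annotation, Prupe.2G282100 averaged 0.113 and 0.161 CPM in the early and 1.04 and 2.92 CPM in the late cultivars (log2 fold change -3.74, SE 0.718, adjusted p = 0.0086, not called without A2137 replicate 2), and Prupe.3G145600, lower in all 4 pairs at 0.501 and 2.32 CPM against 13.1 and 23.6 CPM, just missed the threshold of the phenotype comparison (log2 fold change -3.69, SE 0.88, adjusted p = 0.0511).

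The DAM genes, which repress bud growth, were not called over 2-fold between phenotypes by edgeR or by DESeq2 (0 of 6, with 4 of 6 at an unadjusted p under 0.05 in edgeR's 2-fold test). This depended on the groups: with each cultivar as its own group edgeR called DAM2 to DAM6 lower in early buds, with log2 fold changes of -3.08, -1.77, -2.93, -2.01 and -2.39, and it called the same genes without cultivar A1956. In the phenotype groups 4 were lower by the test against no change. DAM5 stood at 52.3 and 76.7 CPM in A2137, 265 and 250 CPM in A1956, 600, 580 and 450 CPM in A660 and 515, 485 and 484 CPM in A1267. The early libraries were all below the late ones, with a log2 fold change of -1.69 (SE 0.495, adjusted p against no change = 0.0224). DAM6 stood at 51.1 and 63.2 CPM in A2137, 234 and 240 CPM in A1956, 812, 793 and 569 CPM in A660 and 408, 556 and 566 CPM in A1267, also without overlap (log2 fold change -2.07, SE 0.631, adjusted p against no change = 0.0291). DAM3 averaged 6.04 CPM in A2137, 17.3 in A1956, 31.7 in A660 and 38.2 in A1267 (log2 fold change -1.58, SE 0.432, adjusted p against no change = 0.0139). DAM2 was scarce, with means of 0.0824, 0.497, 1.65 and 2 CPM in the same order (log2 fold change -2.63, SE 0.621, adjusted p against no change = 0.00403), and was called over 2-fold without A1956 replicate 2.

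DAM4 separated A2137 from the other 3 cultivars. It stood at 8.19 and 5.72 CPM in A2137, 235 and 233 CPM in A1956, 273, 279 and 241 CPM in A660 and 321, 374 and 376 CPM in A1267. A2137 was called below A660 (log2 fold change -5.25), A1267 (-5.68) and A1956 (-5.07), whereas A1956 minus A660 was -0.18 and A1956 minus A1267 was -0.61, neither called. DAM1 stood between 1.33 and 2.5 CPM in all 10 libraries with early and late overlapping (log2 fold change -0.33, SE 0.518, adjusted p against no change = 0.774). In the pairwise fit DAM2 to DAM6 were all called lower in A2137 than in either late cultivar, none of the 6 was called between A1956 and a late cultivar, and DAM4 and DAM5 were called lower in A2137 than in A1956. The 6 genes summed to 119 and 154 CPM in A2137, 741 and 753 CPM in A1956 and 1283 to 1723 CPM in the late libraries. They are tandem copies, so reads shared between them could move between members.

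**Figure D4:**
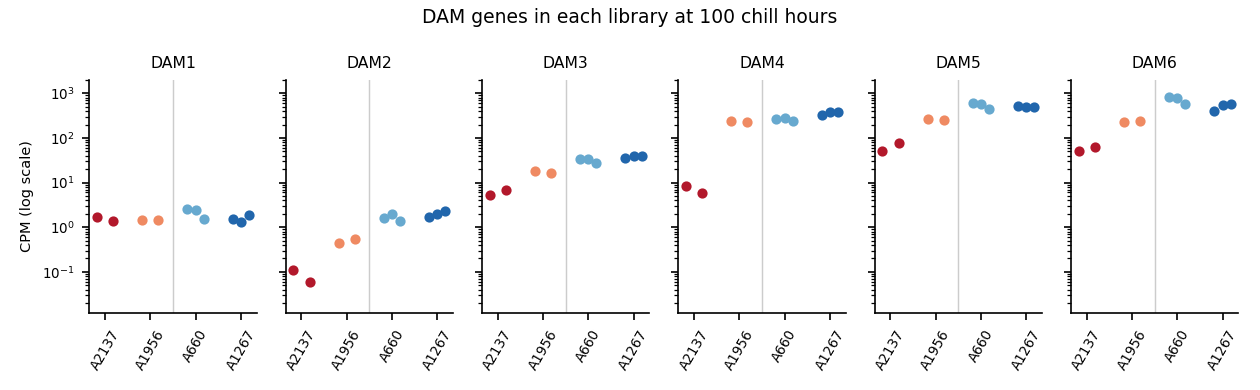
Level of DAM1 to DAM6 (CPM, log scale, vertical axis) in each library at 100 chill hours, with early cultivars left and late cultivars right of the grey line. A2137 lies lowest for DAM2 to DAM6, and for DAM4 A1956, at 233 and 235 CPM, lies beside the late libraries.

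Among the other genes that the study discusses, few passed a test between phenotypes, and some differed in A2137. Of 50 genes in 12 lists (cold protection, pollen and anther, ovule, peroxidases, oxidoreductases, STP1 transporters, beta-galactosidases, gibberellin 2-oxidases, heat, auxin, cell cycle and chromatin) edgeR called 0 over 2-fold, with 1 at an unadjusted p under 0.05 in that test, and DESeq2 called 1, Prupe.5G090900, which had 1 count in the 10 libraries together. The study chose many of these genes on the same samples. Against no change 2 were lower in early buds. The gibberellin 2-oxidase GA2OX (Prupe.4G080700), which deactivates gibberellins, averaged 10 CPM (SD 0.823) in A2137, 41.7 (SD 4.93) in A1956, 86 (SD 12.5) in A660 and 78.1 (SD 8.66) in A1267, with a log2 fold change of -1.67 (SE 0.551, adjusted p = 0.0465). HSFA2 (Prupe.7G206900), a heat stress factor, averaged 2.87 CPM in A2137 and 10.6, 9.71 and 18.9 CPM in A1956, A660 and A1267 (log2 fold change -1.09, SE 0.365, adjusted p = 0.0497). By cultivar, 6 of the 50 genes were called lower in A2137 than in either late cultivar, and 0 were called higher than both. The 6 were both gibberellin 2-oxidases, HSFA2, LEA, a cyclin D and the auxin efflux carrier Prupe.5G004300. Over all genes A2137 was called lower than A660 at 5.54% and lower than A1267 at 4.55%. The share lower than both was not counted, so the 6 are not read as a result about these lists. The further GA2OX copy, Prupe.4G204600, averaged 11.7 CPM in A2137, 72.1 in A1956, 73.4 in A660 and 99.1 in A1267. Cyclin D (Prupe.8G146700), which drives entry into the cell cycle, averaged 6.95 CPM in A2137, 105 in A1956, 96.9 in A660 and 76.5 (SD 51.9) in A1267. A1956 lay beside the late cultivars for both, as it did for LEA (Prupe.1G104900), a late embryogenesis abundant protein of cold protection, at 109 CPM in A2137 and 560, 627 and 872 CPM in A1956, A660 and A1267. The other cold protection genes were not called in any pair: CAP160 (Prupe.2G294400) averaged 155 CPM in A2137 and 473, 357 and 418 CPM in the others, and COR (Prupe.7G161100), which matches the dehydrin RD17, averaged 4608 CPM (SD 734) in A2137, 8298 (SD 421) in A1956, 8656 (SD 1548) in A660 and 8288 (SD 1102) in A1267.

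Of 213 genes tested in 14 lists of gene families, 38 were called higher and 5 lower, and 12 of the 14 lists held a called gene; late embryogenesis abundant and chlorophyll related genes held none of 6 and 4 (DESeq2 also 0, with 0 and 0 at an unadjusted p under 0.05 in the 2-fold test). These families were drawn from the study's annotated tables, which include its own list of genes changed at 100 chill hours in these samples, so the shares are not independent evidence and are not read against the background of 0.808%.

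The same early against late test at 0 and at 400 chill hours used other libraries of the same cultivars, with 1 library each for A2137 and A1267 at 0 chill hours. From its clustering the study assigned A2137 at 400 chill hours to ecodormancy and the other cultivars at that time to endodormancy. The early group at 400 chill hours therefore mixes stages, and its comparison with late buds is not one within endodormancy. At 0 chill hours 13 genes were higher in early buds (0.0597%) and 1 lower (0.00459%); at 400 chill hours 884 were higher (4.06%) and 88 lower (0.404%). Of the 152 genes higher at 100 chill hours, 11 were also called higher at 0 and 39 at 400 chill hours, and of the 24 lower genes 1 and 7 were called lower. None was called in the opposite direction. The shared genes and the A2137 genes differed in this respect. Of the 18 genes higher in all 4 pairs, 8 were called at 0 chill hours. Of the 110 called in both A2137 pairs only, 1 was called then. This contrast is partly built in, since the test at 0 chill hours shares its spread with 100 chill hours. There the 110 genes were chosen for a gap between A2137 and the late cultivars that A1956 did not reach. At 0 chill hours the early group also held 2 libraries of A1956 and 1 of A2137. With each group set to at least 3 counts, the median log2 ratio of early to late buds for the 18 genes was 4.65, 5.15 and 3.71 at 0, 100 and 400 chill hours, and for the 110 genes it was 0.18, 3.33 and 0.98.

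Within A2137, 97 of those 110 genes had a higher mean at 100 chill hours than at both 0 and 400 chill hours, and 85 exceeded both by more than 2 times, which held for 8 of the 110 in A1956, 0 in A660 and 5 in A1267. The genes had been chosen for their level in A2137 at 100 chill hours, so a peak there is partly built in. In A2137 the step from 100 to 400 chill hours also spans the study's change from endodormancy to ecodormancy. WRKY23 went from 18.1 CPM in the single A2137 library at 0 chill hours to a mean of 219 at 100 and 13.9 at 400 chill hours, while A660 went from 13.6 to 17.9 and 31 CPM. The thaumatin-like Prupe.7G169400 went from 5.01 to 108 and 5.88 CPM in A2137 and from 8.24 to 5.54 and 12.1 CPM in A1267. EXPA4 went from 5.98 to 212 and 11.9 CPM in A2137 and from 6.8 to 6.78 and 3.5 CPM in A1956. COB in contrast stood at 6.71, 6 and 5.6 CPM in A2137 and 8.58, 5.17 and 4.25 CPM in A1956, and CYP81D5 at 9.48, 5.62 and 6.04 CPM in A2137, with no peak at 100 chill hours.

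A test of the change itself compared the early minus late difference between time points, with the ecodormant A2137 libraries in the early group at 400 chill hours. From 100 to 400 chill hours it passed over 2-fold for 151 genes (0.693%), 13 of them among the 176, of which 10 were called in both A2137 pairs only and 0 in all 4 pairs. From 0 to 100 chill hours it passed for 2 genes (0.00918%), both called in the A2137 pairs only. WRKY23 changed by -3.62 on the log2 scale from 100 to 400 chill hours (SE 0.485, adjusted p = 4.61e-04). The thaumatin-like gene changed by 4.67 from 0 to 100 (SE 0.804, adjusted p = 0.0496) and by -4.13 from 100 to 400 chill hours (SE 0.714, adjusted p = 0.00371).

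**Figure D5:**
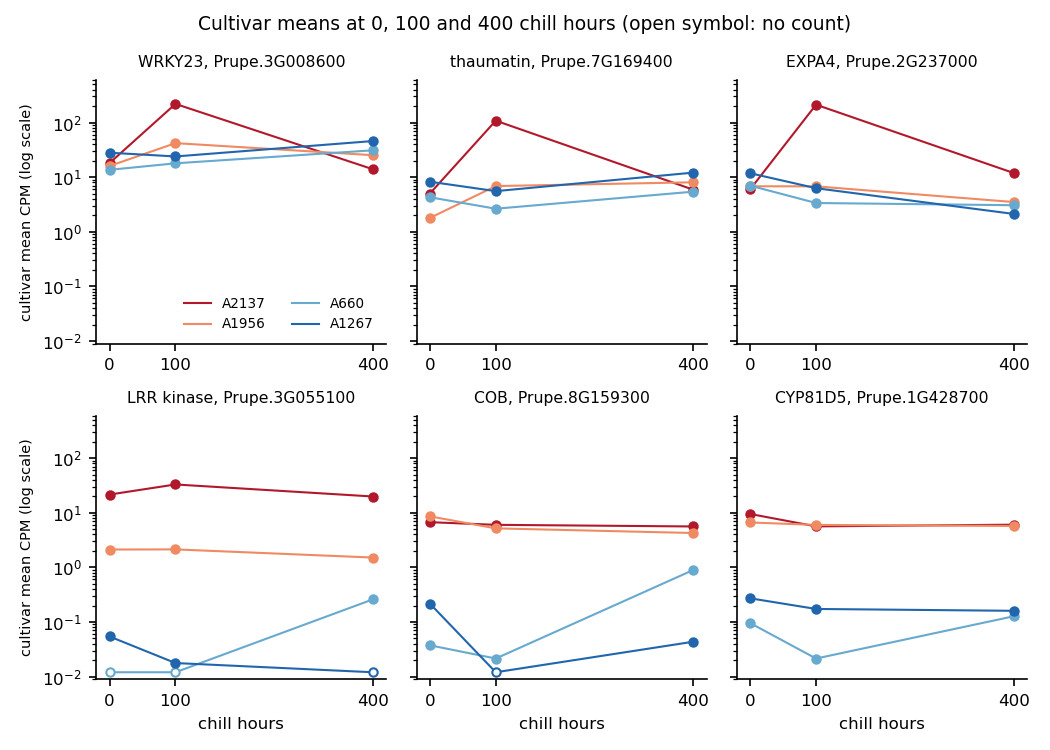
Mean CPM of each cultivar (log scale, vertical axis) at 0, 100 and 400 chill hours (horizontal axis) for 3 genes called in both A2137 pairs only (upper row) and 3 called in all 4 pairs (lower row); an open symbol at the foot is a mean of 0, and at 0 chill hours A2137 and A1267 are single libraries. WRKY23, the thaumatin-like gene and EXPA4 peak at 100 chill hours in A2137 (219, 108 and 212 CPM), while the early cultivars stay above the late ones at each time point in the lower row.

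Peach buds at 100 chill hours gave a comparison of a related species, with 8 low chill libraries (A209 and A340) and 7 high chill libraries (A318 and A323). The libraries of a genotype came from its clones, so each side again holds 2 genotypes. The study reported ribosomal RNA contamination in most of its peach libraries and removed those reads before alignment. There 31 of 20798 genes were higher (0.149%) and 68 lower (0.327%) in low chill buds. Of the 152 genes higher in early apricot buds 118 could be tested in peach and 3 were higher in low chill peach, and of the 24 lower genes 18 could be tested and none was called, in either direction. Over the genes that could be tested, 86 of the 118 had a log2 fold change above 0 in peach (median 0.40), as had 11 of the 18 lower genes (median 0.24). Both sets thus leaned to the same side. The share above 0 over all genes tested in peach is not given here, so no shared or opposite direction is read from these signs. JMT was among the 3, with a low minus high chill log2 fold change of 3.70 (SE 0.807, adjusted p = 0.0339); the others were Prupe.3G103200 and Prupe.8G223900, named because the count is small. DAM5 and DAM6 were lower in low chill peach, by 4.56 and 2.88 on the log2 scale (adjusted p = 6.07e-10 and 1.30e-04), whereas WRKY23 (-0.07) and ERF13 (0.34) were not called.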

How the data were processed

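Per the labels, RNA of floral buds was sequenced in 129 libraries. The authors trimmed reads with skewer, aligned them to the peach genome v2.0 with STAR 2.5.3a, and deposited raw HTSeq counts per gene, with the DAM genes counted on an earlier annotation. Strand and the treatment of reads with several matches are not given in the sources used here. Early and late were assigned from the bloom dates of the study. The 60 apricot libraries were fitted in 12 groups of phenotype and time point (edgeR 4.0.16, R 4.3.3, TMM, filterByExpr with a minimum count of 10 and a minimum total of 15), so the spread includes differences between cultivars of a phenotype; pairs used 24 groups of cultivar and time point. Calls used glmTreat (2-fold, Benjamini-Hochberg adjusted p under 0.05), and SE is the log2 fold change over the root of F. CPM used TMM-scaled totals, and intervals and floors cover counting error only. Alternatives included DESeq2 1.42.0. Named genes were the DAM genes, called genes without overlap of libraries with the largest changes (15 higher, 10 lower), up to 4 called members of each list, and up to 5 a direction called in all 4 pairs; unannotated genes were limited. The genes compared and the lists were chosen with earlier results of these data known. Annotations cover 2757 of 26872 genes.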

Additional observations from a re-analysis of the deposited data

Results flagged for a closer look

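Dixon's limit marks a gap to the other libraries of a phenotype that chance gives in about 1 of 20 groups of normal values. Each group here mixed cultivars and some values rested on single reads, so that rate does not hold. Gaps larger than the limit were seen 13 times among the named genes. A1267 replicate 1, the library that stood apart, was the highest late library for 5 of them: Prupe.5G095000 at 13.3 CPM (next 2.76), Prupe.3G145600 at 39.9 CPM (next 18.9), RPT6A (Prupe.2G111300) at 0.359 CPM (next 0.106), and Prupe.1G202900 and Prupe.2G260400, each at 0.12 CPM from 1 read. Single reads also set Prupe.3G055100 and UGT73B3 (Prupe.8G130400), both at 0.053 CPM in A1267 replicate 2, COB (Prupe.8G159300) at 0.0642 CPM in A660 replicate 1 and Prupe.5G095000 at 0.0578 CPM in A2137 replicate 3. The others were Prupe.5G141200 at 0.53 CPM in A1267 replicate 2, Prupe.1G126900 at 1.54 CPM in A1267 replicate 3, RPT6A (Prupe.2G111300) at 3.41 CPM in A2137 replicate 3 and Prupe.1G083100 at 0.599 CPM in A1956 replicate 1.

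The early minus late difference changed over 2-fold between time points for 7 named genes by edgeR. At 400 chill hours the early group held the A2137 libraries that the study assigned to ecodormancy. From 100 to 400 chill hours the change was -3.62 for WRKY23 (Prupe.3G008600), -4.13 for the thaumatin-like Prupe.7G169400, -4.01 and -3.80 for the ABR1 matches Prupe.8G037900 and Prupe.6G165700, -3.31 for the pectin methylesterase inhibitor Prupe.2G279700, -2.53 for HSFA3 (Prupe.7G117200) and 4.60 for Prupe.2G282100 (adjusted p from 4.61e-04 to 0.0475). Prupe.7G169400 also changed by 4.67 from 0 to 100 chill hours (adjusted p = 0.0496).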

How the results depend on the processing

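The count of 176 genes was 169 with DESeq2 size factors, 166 without the low-count filter and 164 with a replicate block. After removal of cultivar means, same-numbered libraries of different cultivars correlated between -0.24 and 0.28. Differently numbered libraries were not compared, so this does not settle whether a replicate number marks a shared block. It was 666 with groups by cultivar and time point (355 higher, 311 lower), 1070 with the 2-fold limit applied after a test against no change (715 higher, 355 lower), 12 from the 10 libraries alone and 114 by DESeq2's Wald test. It was 13 without cultivar A2137, 881 without A1956 (471 higher, 410 lower) and 81 without A1267, and 59 to 293 with 1 library left out.

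By DESeq2 the pairs gave 1445 genes for A2137 and A1267, 138 for A1956 and A660, 408 for A1956 and A1267, 1097 for A2137 and A1956, 555 for A660 and A1267 and 13 for all 4 early against late pairs. Leaving out 1 library at a time, chosen after seeing the data, gave 1732 to 2412 genes for A2137 and A660, 1590 to 2187 for A2137 and A1267, 143 to 219 for A1956 and A660, 404 to 816 for A1956 and A1267, 1031 to 1805 for A2137 and A1956, 696 to 1077 for A660 and A1267, and 14 to 23 for all 4 pairs. With the test against no change and a 2-fold limit, 22 and 82 genes kept their direction at 0 and 400 chill hours in place of 12 and 46. Of the 44 named genes called, 7 kept their call in every setting that tested them (5 of them were tested in all settings), 27 lost it in the fit of the 10 libraries alone, where 9 were below the filter, 20 without cultivar A1267, 17 without A660 and 33 without A2137, where Prupe.1G128300 reversed to -2.37. The cause of these changes was not tested. Genes with few reads are limited by depth, since 3 counts are 0.143 to 0.353 CPM.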
